A study of Mus musculus with 2 samples.

Results

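The genes described here are 37 genes of autophagy and the lysosome, taken by gene symbol from a list that follows the pathway from the kinases that start it to the enzymes of the lysosome. They were read in the gastrocnemius, a calf muscle, of 2 female mice aged 10 weeks. The array carried probes for 19321 named genes, and 35 of the 37 were among them, with 37 probes in all. Gabarapl2 and Optn had no probe under their symbol and were not analysed here. All 35 were above background on both arrays, a limit that 92.6% of all probes passed on the control and 92.8% on the depleted array.

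One mouse was Pdgfra-CreER:R26-DTA and is called depleted here, and the other was a wild-type R26-DTA littermate, called control. Both therefore carried the R26-DTA allele, and both were given tamoxifen on 5 consecutive days, starting at 9 weeks of age, with the muscle taken 2 days after the final injection. In the depleted mouse tamoxifen activates a Cre made under the Pdgfra promoter, which switches on diphtheria toxin A in the same cell. The toxin kills the cell, which by design removes PDGFRα-positive mesenchymal progenitors. The study asked which genes are altered in muscle without these cells. Each group held 1 array of 1 mouse, so there are no replicates, no error between animals and no p-value. Array, animal, the CreER allele and depletion cannot be told apart.

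In autophagy a double membrane forms around cell contents, closes into an autophagosome and fuses with a lysosome, where the cargo is digested. The ULK1 kinase complex starts it, a lipid kinase complex built on Pik3c3 and Becn1 marks the growing membrane, and ubiquitin-like enzymes couple the ATG8 proteins (LC3 and GABARAP) to it. Cargo receptors bind both their cargo and the ATG8 proteins. In skeletal muscle the pathway works with the ubiquitin-proteasome system in protein turnover, is induced by fasting and denervation, and includes genes that FoxO3 is known to control.

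The values given per array are the authors' processed intensities, called deposited intensities, whose median is 25 on both arrays. Log2 ratios are depleted minus control after normexp background correction and quantile normalization, and a gene is counted as higher or lower at 1.5-fold or more. The repeated spots read for their spread were 2 positive controls with 24 spots each, whose coefficient of variation within an array lay between 6.59% and 10.9%. That covers the position on an array and nothing between mice. Between the arrays these control spots differed as well. In spot intensities before normalization their means were 850.6 and 5668.0 on the control array, and 1800.2 and 9837.3 on the depleted array. The control spots took no part in the normalization. On the normalized log2 scale, genes with spots of 781.7 and 929.7 on the control array stood at 9.87 and 10.11. A gene with a spot of 1799.9 on the depleted array stood at 10.59. The dimmer control would thus still differ by about 1.5-fold there, the threshold used for genes. The cause was not tested. Pdgfra, the gene whose promoter drives the Cre, had deposited intensities of 273.1 in control and 116.6 in depleted muscle, a log2 ratio of -0.94. All 11 measured markers of mesenchymal progenitors had a ratio below 0, with 8 past 1.5-fold, and 5 of 6 erythroid markers were at least 1.5-fold lower. The 10 myofibre markers, none of which passed 1.5-fold, had the high signals of muscle tissue. In whole muscle, fewer cells of a type and less RNA per cell cannot be told apart.

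Of the 35 measured autophagy and lysosome genes, 8 were at least 1.5-fold higher in depleted muscle and 0 were at least 1.5-fold lower. Among all 18498 measured genes the shares were 1.96% higher and 1.52% lower. At 2-fold, 4 members were higher and 0 lower, against 0.492% and 0.427% of all genes. The 8 were Retreg1, Gabarapl1, Ctsl, Bnip3, Ctsd, Sqstm1, Ulk1 and Gabarap. The median log2 ratio of the 35 was 0.13, beside -0.0036 for all genes. A ratio above 0 was found in 22 members (62.9%), beside 47.4% of all genes. Retreg1 gave the list its name and was known to be high when the list was drawn up. Without it, 7 of 34 were at least 1.5-fold higher and the median was 0.11.

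Brightness bears on these counts, because the background offset shrinks the ratios of dim genes. When measured genes were cut into 4 equal classes by brightness, all 8 lay in the brightest class, where 5.88% of genes were at least 1.5-fold higher and 4.95% lower, and which held 24 of the 35 members. The count there was 8 of 24, or 33.3%. Of the 9 members in the next class and the 2 in the dimmest class, 0 passed 1.5-fold. In deposited intensities, which have no offset, 11 of 35 members were at least 1.5-fold higher and 0 lower, against 9.34% and 7.21% of all genes.

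The scanner files also hold a column of local background beside each spot. Over all probes it followed the spot's own signal, with a Spearman correlation of 0.941 on the control and 0.972 on the depleted array, and it was not subtracted in the values above. With it subtracted, 8 of the 35 members (22.9%) were at least 1.5-fold higher and 13 lower, beside 21.4% and 19.6% of all genes, so the members' share of higher genes was then near that of all genes. Of those 8, 4 were among the 8 of the main setting: Retreg1, Bnip3, Ctsd and Ctsl.

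**Figure D1:**
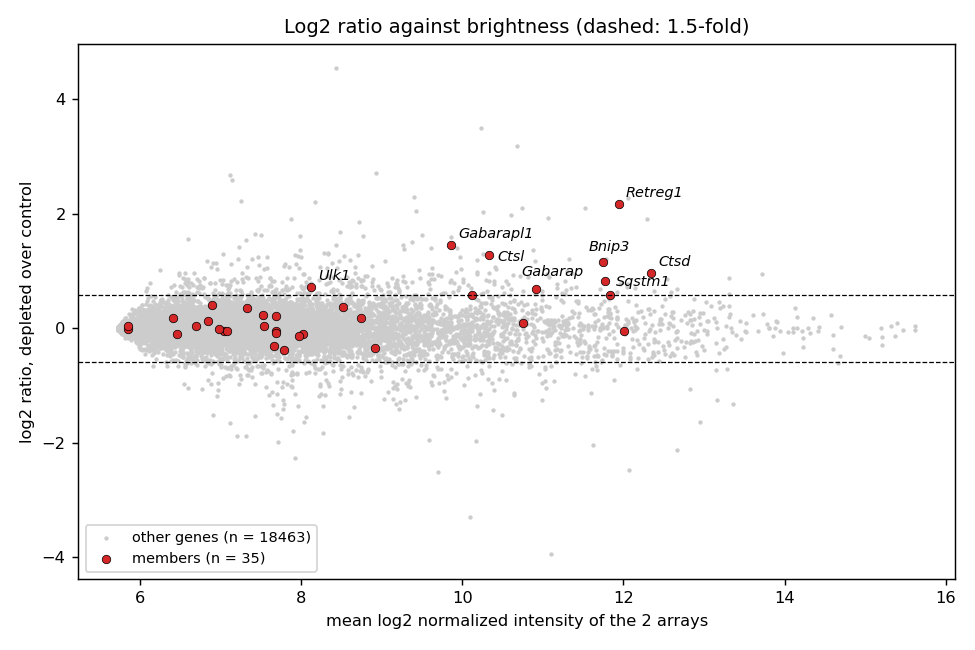
Log2 ratio (depleted over control) of each measured gene against its mean log2 normalized intensity on the 2 arrays, with the 35 members in red, all other genes in grey and dashed lines at 1.5-fold. The 8 named members lie above the upper line, and no member lies below the lower one.

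The counts differed along the pathway, and so did brightness. Of the 19 members that build the autophagosome (the initiation kinases, the lipid kinase complex, the membrane and lipid effectors and the conjugation enzymes), 1 was at least 1.5-fold higher, and their median log2 ratio was -0.013. In the brightest class, where 5.88% of all genes were higher, lay 10 of the 19, with 1 higher. Of the 15 measured ATG8 proteins, cargo receptors and lysosomal proteins, 7 were at least 1.5-fold higher, with a median of 0.58. In the brightest class lay 14 of the 15, with all 7 among them. With the local background subtracted 5 of the 15 were higher and 5 lower, with a median of 0.19, and 3 of the 19 were higher and 7 lower, with a median of -0.13. These 2 groupings were formed after the values had been seen and are given as a description.

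**Figure D2:**
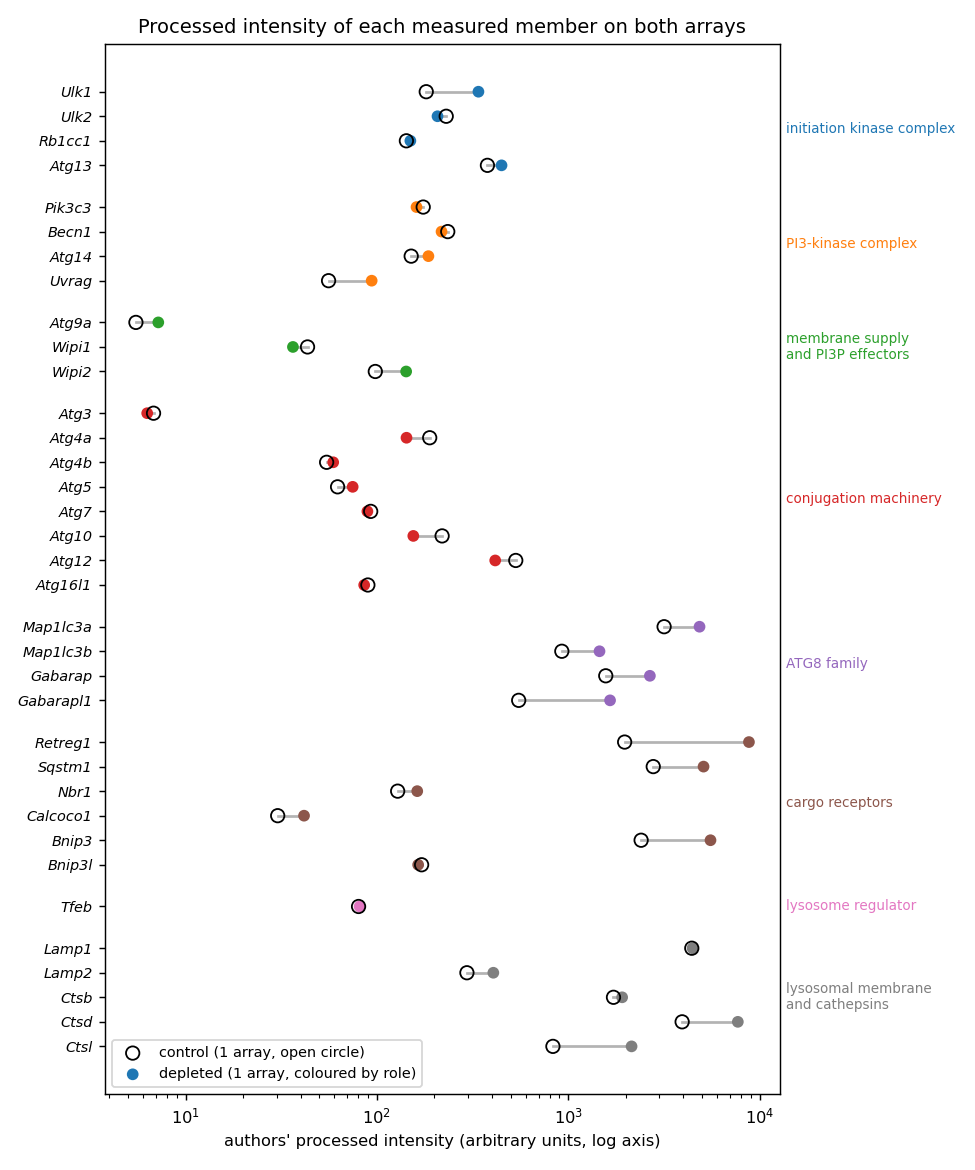
Deposited intensity (arbitrary units, log axis) of each of the 35 measured members in control muscle (open circle) and depleted muscle (filled circle, coloured by role), 1 array each. The widest gap is that of Retreg1, from 1972.3 to 8804.3, while most conjugation enzymes have both circles close together.

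In the initiation complex, Ulk1 was the member past 1.5-fold in the main setting. Ulk1 is the kinase that starts autophagosome formation and is itself held in check by mTORC1. Its deposited intensity was 181.1 in control and 339.4 in depleted muscle, and its log2 ratio of 0.72 placed it at rank 251 of 18498 genes from the highest. Its paralogue Ulk2 lay slightly the other way, with 230.3 in control, 207.4 in depleted muscle and a log2 ratio of -0.13. The scaffold Rb1cc1 (FIP200) was at 0.039 and the regulatory subunit Atg13 at 0.18. In the main setting Ulk1 was thus at 1.64-fold against 1.14-fold for Atg13, the next highest of the 4. With the local background subtracted Ulk1 was at 0.50, under 1.5-fold, while Ulk2 at -1.49 and Atg13 at -1.24 passed it in the other direction.

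The lipid kinase complex showed no member past 1.5-fold in the main setting. The catalytic subunit Pik3c3 was at -0.087 and its partner Becn1 at -0.094 on the log2 scale. The dimmer of the 2 Becn1 probes gave 0.0092. Atg14, which directs the complex to autophagosome formation, was at 0.22. Uvrag, which takes the place of Atg14 in the complex that acts on endosomes, had the largest ratio of these 4 genes at 0.41, with deposited intensities of 55.9 in control and 93.9 in depleted muscle, a 1.68-fold difference on that scale. Its signal is dim enough for the offset to matter: on the normalized scale the difference stayed below 1.5-fold. Pik3c3 was at 0.93 and Becn1 at -0.83 with the local background subtracted.

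Atg9a, the membrane protein of the vesicles that seed the autophagosome, was among the dimmest members, with deposited intensities of 5.5 and 7.2, and its log2 ratio was 0.039. The lipid-binding protein Wipi1 was at -0.11 and its relative Wipi2, which recruits the conjugation machinery, at 0.35. A second Wipi2 probe was not above background on either array. No gene of this role passed 1.5-fold.

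The conjugation machinery was the part of the pathway with most members below 0. Of its 8 genes, 6 had a negative ratio, beside 9698 of all 18498 genes, and 0 passed 1.5-fold, with a median of -0.048. Atg10, the enzyme that couples Atg12 to Atg5, had the lowest ratio of all 35 members at -0.39, with deposited intensities of 219.2 in control and 155.0 in depleted muscle. Atg12, the ubiquitin-like protein it handles, was at -0.35, from 531.9 to 415.4. The protease Atg4a, which trims ATG8 proteins before coupling, was at -0.31, from 188.8 to 142.8. Ratios this low were not rare: 756 of the 18498 genes lay at or below that of Atg10. The remaining conjugation genes were the activating enzyme Atg7 at -0.046, the coupling enzyme Atg3 at -0.013, Atg16l1 at -0.049, Atg4b at 0.046 and Atg5 at 0.13. With the local background subtracted Atg12 turned to 1.35 and Atg7 to 0.90, and 4 of the 8 genes were at least 1.5-fold lower, Atg10 at -1.96 being the lowest.

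All 4 measured ATG8 genes had a log2 ratio above 0 and 2 passed 1.5-fold in the main setting, but all 4 ratios turned with the local background subtracted. Gabarapl1 had deposited intensities of 551.0 in control and 1654.6 in depleted muscle. It was 2.74-fold higher on the normalized scale, with a log2 ratio of 1.45 at rank 32 of 18498. Gabarap went from 1571.2 to 2672.4, a log2 ratio of 0.69. The LC3 genes Map1lc3b and Map1lc3a lay just under 1.5-fold: Map1lc3b went from 926.0 to 1457.4, with a log2 ratio of 0.582, and Map1lc3a from 3171.6 to 4857.9, with 0.574. These 2 are the members just outside the threshold, and Gabarap is the one just inside it. In deposited intensities all 4 passed 1.5-fold, with Map1lc3a lowest at 1.53-fold. The ATG8 proteins are close relatives, the probe sequences were not used here, and signal shared between their transcripts was not tested.

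On the array of depleted muscle the local background column read 1787.9 beside the Gabarapl1 spot of 1799.9, and 2337.6 beside the Gabarap spot of 2884.4. With it subtracted, Gabarapl1 was at -4.06, Gabarap at -0.80, Map1lc3a at -1.03 and Map1lc3b at -0.92.

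Cargo receptors held the largest single difference. Retreg1 (FAM134B) is a receptor in the membrane of the endoplasmic reticulum that feeds pieces of it to autophagy. Its deposited intensity was 1972.3 in control and 8804.3 in depleted muscle. It was 4.51-fold higher on the normalized scale, with a log2 ratio of 2.17, and only 10 of the 18498 genes ranked above it, Retreg1 being at rank 11. With the local background subtracted it was still at 2.05, and its lowest and highest values over all settings were 2.05 and 2.43.

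Bnip3 is a mitochondrial outer membrane protein that recruits autophagosomes to mitochondria. Its deposited intensity was 2405.3 in control and 5542.8 in depleted muscle, and it was 2.24-fold higher, with a log2 ratio of 1.16. Its paralogue Bnip3l (NIX), which has the same role, did not follow, with 171.3 in control, 164.3 in depleted muscle and a ratio of -0.043, or -2.41 with the local background subtracted. Sqstm1 (p62), which links ubiquitin-tagged cargo to LC3, went from 2782.8 to 5097.8, a log2 ratio of 0.83, or 0.33 with the local background subtracted. Nbr1, a receptor of similar build, was at 0.24 and Calcoco1, a receptor of the endoplasmic reticulum and Golgi, at 0.17. Of the 6 measured receptors 3 therefore passed 1.5-fold and 3 did not. Within each of the pairs Bnip3 and Bnip3l, and Sqstm1 and Nbr1, 1 gene passed.

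Tfeb, the transcription factor that induces lysosomal and autophagy genes, had nearly equal deposited intensities of 80.2 and 81.2 and a log2 ratio of -0.0070, or -1.65 with the local background subtracted. Its activity depends largely on where in the cell the protein is, which an RNA measurement does not show.

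Of the lysosomal members, 2 cathepsins were higher. Ctsl, a cysteine protease of the lysosome, had deposited intensities of 831.8 in control and 2143.6 in depleted muscle and was 2.42-fold higher, with a log2 ratio of 1.28 at rank 45. Ctsd, the main aspartic protease of the lysosome, went from 3940.1 to 7701.4 and was 1.95-fold higher, with a log2 ratio of 0.96 at rank 98. Ctsb, a cysteine protease like Ctsl, differed little, with 1724.3 and 1913.8 and a ratio of 0.091. The membrane protein Lamp1 had nearly equal intensities of 4425.1 and 4465.1 and a ratio of -0.044, and Lamp2, which chaperone-mediated autophagy and fusion with the autophagosome require, was at 0.38. Subtraction of the local background put Lamp1 at 1.22, past 1.5-fold.

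Macrophages are rich in lysosomes, and their markers moved in the same direction as Ctsl and Ctsd. Ctsb, at 0.091, differed little. All 12 measured macrophage markers had a ratio above 0, 6 of them at least 1.5-fold, with a median log2 ratio of 0.51, and their summed deposited intensity was 3383.1 in control and 7524.0 in depleted muscle. Lyz2 was at 1.22, Lgals3 at 1.32 and Cd68, itself a lysosomal membrane protein, at 0.71. None was at 0, but Cx3cr1 and Adgre1 were dim, at 0.024 and 0.12, and Csf1r was level at 0.0039. With the local background subtracted 6 of the 12 markers were at least 1.5-fold higher and 2 lower, beside 21.4% and 19.6% of all genes. On the depleted array the local background beside Lyz2 read 5363.3, above its spot of 4658.4. The part of macrophages in the cathepsin and receptor results was not tested. Neutrophil markers had a median of 0.0079, with 0 of 7 past 1.5-fold. Myofibre markers had a median of -0.035, with 0 of 10 past 1.5-fold. In deposited intensities the myofibre median was -0.43, with 2 of 10 at least 1.5-fold lower.

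The rest of the pathway was read through 126 further genes in 5 lists, of which 116 were measured. At least 1.5-fold higher were 12 of them, or 10.3%, and 2 were at least 1.5-fold lower, with a median log2 ratio of 0.10. All measured genes gave 1.96% and 1.52%. Of the 116, 72 were in the brightest class, where 11 were higher and 2 lower, beside 5.88% and 4.95% of all genes there. Of the 116, 38 were higher and 33 lower with the local background subtracted. Of 39 other lysosomal enzymes and membrane proteins 5 were higher, all in the brightest class, which held 22 of the 39, and 0 were lower. The cholesterol exporter Npc1 was at 1.63, from 389.8 to 1369.6. On the depleted array the local background beside Npc1 read 1532.2, above its spot of 1496.3, so its ratio rests on leaving that column out. The cathepsin Ctss, which antigen-presenting cells make in quantity, was at 1.27, the glycogen-degrading enzyme Gaa at 0.84 and the tetraspanin Cd63 at 0.66.

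Of 15 subunits of the V-ATPase, the pump that acidifies the lysosome, 1 was higher and 1 lower, Atp6v1h at 0.90 and Atp6v1g1 at -0.71. Of 21 other genes of the autophagosome machinery 1 passed, Zfyve1 (DFCP1), which marks the sites where autophagosomes form, at 0.79. Of 16 other selective autophagy receptors 1 passed, Tex264, a further receptor of the endoplasmic reticulum, at 0.61. The medians of these 3 lists were 0.14, 0.078 and 0.042. The shares of higher genes were 6.67% for the V-ATPase and 6.25% for the receptors, lists that lay mostly in the brightest class, and so near the 5.88% of all genes there.

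Among 25 regulators upstream of autophagy 4 were higher and 1 lower, all 5 in the brightest class, which held 17 of the 25. Their median log2 ratio was 0.087. With the local background subtracted 6 of the 25 were higher and 9 lower, with a median of -0.084. Sesn1, a stress-induced inhibitor of mTORC1, was at 1.61, with deposited intensities of 216.4 and 787.6. Ddit4 (REDD1), which also restrains mTORC1, was at 1.39, from 357.4 to 1053.6. Flcn, which acts on the lysosomal Rag GTPases, was at 1.02. Deptor, an inhibitory partner of mTOR, was lower, from 649.0 to 218.5, with a log2 ratio of -1.37. The fifth gene was Foxo3, the transcription factor named above, at 0.67. Its relatives in the list did not pass 1.5-fold, with Foxo1 at -0.064 and the dim Foxo4 at 0.023.

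**Figure D3:**
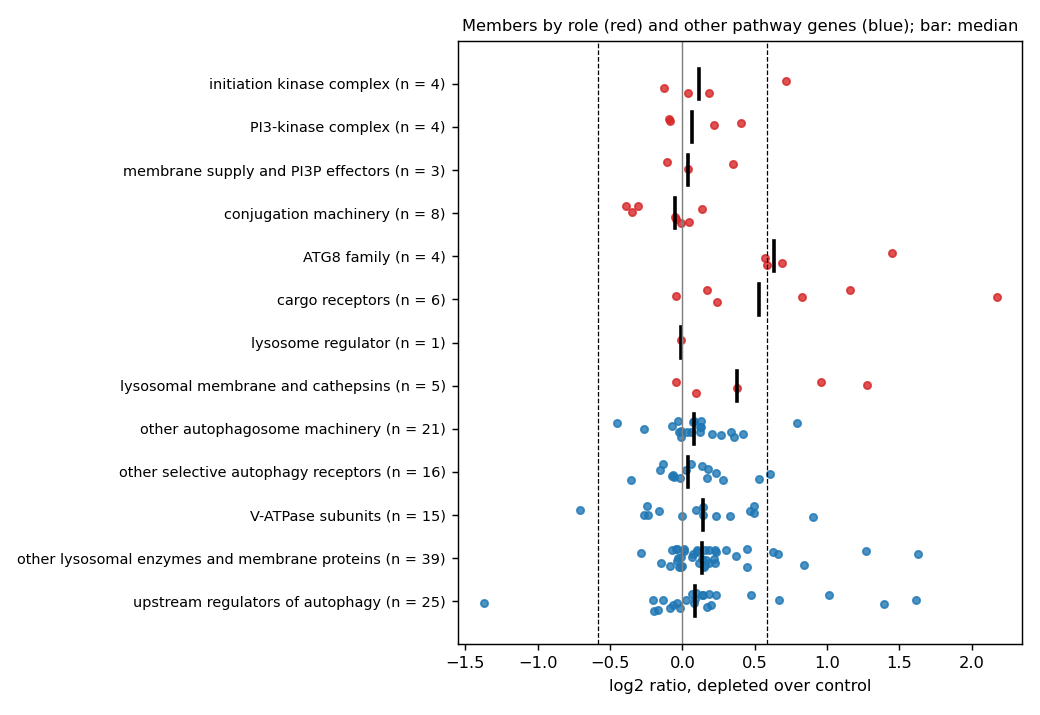
Log2 ratio (depleted over control) of each measured member by role (red) and of the 116 other pathway genes by list (blue), 1 point per gene, with the median of each list as a black bar and dashed lines at 1.5-fold. The ATG8 family (median 0.64) and the cargo receptors (median 0.53) lie farthest to the right, and the conjugation machinery has its median at -0.048.

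Promoter sequences of RefSeq (build GRCm38.p6) were matched by symbol for 29 of the 37 members, each window running from 250 bases before to 50 after an annotated start. They are shown because 8 members were at least 1.5-fold higher in the main setting, and they describe the genes rather than the arrays. Whether these members share a regulator was not tested. On both strands, the letters searched were TCACGTGA, the palindrome of the CLEAR element to which TFEB binds, the FoxO core GTAAACA, and, added after the data had been seen, the E-box core CACGTG, which every TCACGTGA also contains. The FoxO core was in the window of 0 of 29 members and of 4.05% of all 27025 genes with a window. The CLEAR palindrome was in 2 of 29, Ctsd and Atg3, and in 1.12% of all genes. The E-box core was in 9 of 29 members and in 8.09% of all genes. It was in 4 of the 8 members that were at least 1.5-fold higher (Retreg1, Bnip3, Ctsd and Ctsl) and in 5 of the 19 other measured members with a window (Atg14, Atg3, Atg5, Atg7 and Lamp1).

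The stretches below hold these letters in capitals, 5′ to 3′ on the strand of the gene, and all lie before the annotated start. They cover the 4 higher members (Ctsd at both of its sites), with Lamp1, whose window held 4 E-box cores and whose log2 ratio was -0.044, and Atg3, which held the palindrome. Atg3 lies in the dimmest class, where the background offset shrinks ratios, so its log2 ratio does not show whether it differed. The positions are chr7:142387904-142387941 (minus strand) and chr7:142388052-142388077 (minus) for Ctsd, chr13:64370736-64370770 (minus) for Ctsl, chr7:138909594-138909629 (minus) for Bnip3, chr15:25942476-25942511 (plus) for Retreg1, chr8:13159085-13159160 (plus) for Lamp1 and chr16:45158742-45158779 (plus) for Atg3. The Retreg1 stretch precedes 1 of 4 starts in the table, and the windows of the other starts of Retreg1 did not hold CACGTG.
Ctsd, palindrome: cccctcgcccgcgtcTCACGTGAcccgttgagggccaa
Ctsd, distal E-box core: tccccCACGTGacctgtatccagtca
Ctsl: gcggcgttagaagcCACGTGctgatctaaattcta
Bnip3: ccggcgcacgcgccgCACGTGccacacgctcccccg
Retreg1: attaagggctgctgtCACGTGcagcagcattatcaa
Lamp1: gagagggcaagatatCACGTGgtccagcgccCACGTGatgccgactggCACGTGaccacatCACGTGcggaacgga
Atg3: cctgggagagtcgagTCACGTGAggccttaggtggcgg

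The 2 members with the highest ratios differed in the base composition before their starts. The 250 bases before the most upstream Retreg1 start (chr15:25843048-25843297, plus strand) were 76.4% G or C, and those before the Gabarapl1 start (chr6:129532942-129533191, plus strand) 46.8%. Neither stretch held any of the letters searched, which says only that these exact letters are not in these windows. Sites that differ from them by a base were not searched, here or in the counts above.
Retreg1: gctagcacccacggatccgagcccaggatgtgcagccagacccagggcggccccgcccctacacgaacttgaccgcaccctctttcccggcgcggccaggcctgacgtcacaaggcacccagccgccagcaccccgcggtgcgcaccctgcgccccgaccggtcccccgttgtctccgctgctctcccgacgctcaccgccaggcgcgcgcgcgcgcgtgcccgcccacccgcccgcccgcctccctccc
Gabarapl1: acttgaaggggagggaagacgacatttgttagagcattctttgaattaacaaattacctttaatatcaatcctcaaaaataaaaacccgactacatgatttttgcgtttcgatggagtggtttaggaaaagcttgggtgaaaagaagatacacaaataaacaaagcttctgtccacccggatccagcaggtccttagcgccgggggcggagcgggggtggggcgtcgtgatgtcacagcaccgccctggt

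The ratios depended on the scaling in 1 respect. With each array scaled to its median in place of quantile normalization, the brightest class of genes had a median log2 ratio of 0.24, beside -0.0065 in the main setting. The share of higher genes among all that passed 1.5-fold was then 87.8% in place of 56.3%. Under that scaling 11 of the 35 members were at least 1.5-fold higher and 0 lower, against 4.84% and 0.676% of all genes. At 2-fold 7 were higher and 0 lower, against 1.17% and 0.205%. Of the 24 members in the brightest class, 17 then lay above that class's median, against 16 in the main setting.

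**Figure D4:**
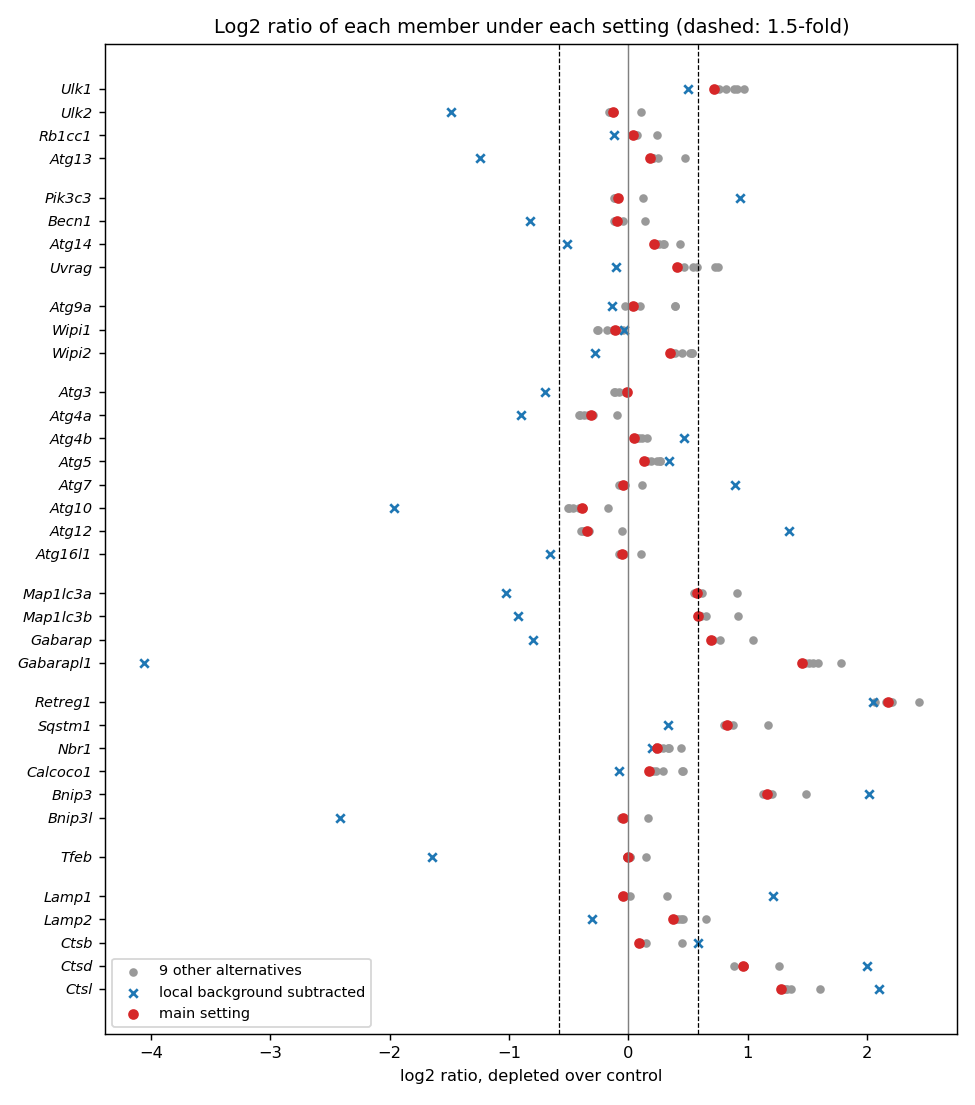
Log2 ratio (depleted over control) of each measured member in the main setting (red), with the local background column subtracted (blue cross) and under 9 other alternatives (grey), with dashed lines at 1.5-fold. Retreg1, Bnip3, Ctsd and Ctsl lie beyond the upper line in every setting shown, and the crosses of the 4 ATG8 genes lie below 0.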

How the data were processed

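Expression was measured in 2 samples of mouse gastrocnemius, 1 control and 1 depleted, on arrays of 27456 spots with 23473 probes. Amplified RNA was labelled with Cy5, per the labels' protocols. Per the file headers the scanner values are spot intensities from scans at 3 gains, with no background subtraction, and the authors' deposited table holds processed intensity values. On each array that table is a straight line of the scanner values, zero at the mean of the blank spots, with a factor of 1.27 for control and 0.939 for depleted, and 1237 and 1231 probes near the blanks are empty. The scanner is not given in the sources used here.

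Spot intensities were corrected with normexp (offset 50, limma 3.58.1, R 4.3.3), taken to log2 and quantile-normalized across the probes. A probe was above background when its spot exceeded the blanks' mean by more than 2 SD (limits of 37.4 for control and 38.5 for depleted, where the median probe read 53.3 and 59.8). A gene entered if either array had it above background, which gave 18498 genes, each represented by its brightest probe, and a value below background was raised to the lowest value above it. The platform annotation, which is the source of gene names, gives 20690 probes 1 symbol, 0 several and 2783 none. By Entrez gene 20556 probes matched the RefSeq table. No build is stated for the array, so gene positions are not given.

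With 1 array per group no test was run, and differences were counted at 1.5-fold and 2-fold. The number of arrays limits the precision. The procedure was tested on simulated data, a copy of the control array with known changes in probes well above the blanks. Dimmer probes, and differences between arrays that vary with brightness, were not covered. The members, the gene lists and the alternatives were chosen with earlier results of these data known. All members are named, and members past 1.5-fold are given with both arrays. Of each further pathway list, up to 4 genes past 1.5-fold are named by size of the ratio. Foxo3 is named beyond that limit after its value was seen, with Foxo1 and Foxo4 beside it. As alternatives, the offset was set to 16, background correction was left out, the blank spots or the local background were subtracted, quantile normalization was replaced by scaling to the median or by cyclic loess, the deposited table was used as it stands, 2 other filters were set, and the probes of a gene were averaged. For promoters, the window was limited to the 250 bases before the start. Endothelial markers had a median log2 ratio of 0.11, muscle stem cell markers 0.068, mesenchymal progenitor markers -1.06 and erythroid markers -2.30. The planned comparison of protein sequences was not run. Python 3.11.15, numpy 2.4.6, pandas 2.3.3 and matplotlib 3.10.9 were used.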

Additional observations from a re-analysis of the deposited data

How the results depend on the processing

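No paired analysis was possible because there was a single array of each kind. The count of members at least 1.5-fold higher (8) lay between 8 and 11 under the 10 alternatives, but the share of all genes that passed moved too, from 1.96% in the main setting to 8.91% with the blank spots subtracted and 21.4% with the local background subtracted. Under the last, the members' 22.9% was near the share of all genes, and 4 of the 8 genes were those of the main setting. Retreg1 stayed between 2.05 and 2.43. The median of the members (0.13) was 0.24 with the blank spots subtracted, 0.32 with scaling to the median, 0.26 in the authors' processed values and -0.12 with the local background subtracted. Scaling to the median put 7 members at least 2-fold higher in place of 4. Subtraction of the local background put 13 members at least 1.5-fold lower, beside 19.6% of all genes, and 7 at least 2-fold lower, beside 10.9%, and turned Gabarap to -0.80 and Gabarapl1 to -4.06. The cause was not tested in either case. All members were above background on both arrays, so the 2 filters could not move them, and the mean of probes concerned Becn1 and Wipi2. Of 238 values of the other members under the 7 remaining alternatives, 208 kept their direction and side of 1.5-fold or stayed under it, and 19 came to pass 1.5-fold in the same direction. The 7 that passed it in the other direction, the 2 that came under it and the 2 that reversed were all with the local background subtracted. The windows limited to the bases before the start held the palindrome in 2, the FoxO core in 0 and the E-box core in 8 members. Signal over background limits Atg9a and Atg3, whose deposited intensities lay between 5.5 and 7.2.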
